A study of Mus musculus with 12 samples.

Results

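The genes described here are 10 apolipoprotein, lipoprotein assembly and remodelling genes, Apoa1, Apoa2, Apoa4, Apob, Apoc3, Apoe, Mttp, Pltp, Lcat and Lipc, chosen by name and compared between fibrotic and FLO livers of obese mice. They were found by symbol in a table of 56205 genes, and all 10 were among the 13416 genes that passed the filter on low counts, with between 459 and 503256 counts in any 1 library. RNA was extracted from whole livers of 12 mice, 6 in each group, and poly(A)-selected libraries were sequenced. All 12 mice were ob/ob (B6.Cg-Lepob/J), which lack leptin, overeat and become obese with fatty livers, and the methods state that only males were used, from 8 to 10 weeks of age. FLO mice received standard chow alone. Fibrotic mice received the same chow with DL ethionine, an ethyl analogue of methionine that enters the methionine cycle and is toxic to hepatocytes. The sources disagree on the treatment: 0.165% in drinking water and 0.15% by injection in the labels, 2 weeks in the design text, and 0.15% in drinking water for 1 week in the methods. Both groups carry the leptin defect, so the comparison holds no lean group. Fibrotic is used here as the group name from the sample titles, and the degree of fibrosis was not assessed. For ob/ob mice given ethionine, the study reported that Col1a1 and Zfp469 did not differ. It described this model by microvesicular steatosis and inflammation.

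Lipoproteins carry triglyceride and cholesterol through plasma as particles with a lipid core and a coat of phospholipid and apolipoproteins. Hepatocytes build very low density lipoprotein (VLDL) around apolipoprotein B, which the transfer protein encoded by Mttp loads with lipid in the endoplasmic reticulum. They also secrete apolipoproteins A-I and A-II, the main structural proteins of high density lipoprotein (HDL). In plasma, HDL is matured by lecithin-cholesterol acyltransferase (Lcat), supplied with phospholipid by phospholipid transfer protein (Pltp) and trimmed by hepatic lipase (Lipc).

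Total counts ran from 17815568 to 24814263 per library. Levels are given as CPM (counts scaled to library size, with TMM factors), and a gene was called where its absolute log2 fold change passed 0.5 and the edgeR quasi-likelihood test gave a Benjamini-Hochberg adjusted p no higher than 0.01. Each fold change is fibrotic against FLO, and its interval is a 95% confidence interval. Hepatocyte markers were abundant in every library, with a summed level of 66116 to 106124 CPM in fibrotic and 84186 to 99759 CPM in FLO libraries. Of the 7 hepatocyte markers, 2 were called higher (Fgb at 0.82 and Cps1 at 0.73 on the log2 scale) and 0 lower, with a median of 0.13, and albumin (Alb) had a log2 fold change of -0.31 (adjusted p = 0.0803). DESeq2 likewise called 2 of the 7, and 4 had an unadjusted p under 0.05 in edgeR. The FLO library labelled replicate 3 held 3773 counts of Xist and 4 of Ddx3y, where the other 11 held 0 to 4 and 556 to 977, which goes against the stated male sex. It was kept as labelled, and values without it are given. The labels name no sequencing batch. Nothing states how many cages or litters the mice came from, so p-values measure the spread between these mice.

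Of the 10 genes, 4 were called lower in fibrotic livers (Apoa1, Pltp, Lcat and Lipc), 1 was called higher (Apoc3) and 5 were not called (Apoa2, Apoa4, Apob, Apoe and Mttp). Over all tested genes, 29.9% were called, 14.0% lower and 15.9% higher. The groups did not overlap for 5 of the 10 genes, the same 5 that were called, against 30.4% of all tested genes. The median log2 fold change of the 10 genes was -0.91, beside 0.03 over all tested genes, and the median absolute value was 0.91 beside 0.38. By role, the 6 genes whose proteins build or remodel HDL had the negative values, with Apoa2 and Apoa4 not called. Apob, Mttp and Apoe lay near 0. Neither pattern was uniform over further genes of the pathway. Of 14 further assembly and secretion genes, 2 were called higher and 7 lower. Of further HDL genes described below, Pon1 (log2 fold change -1.96) and Lipg (-0.70) were called lower and Abca1 (0.64) higher.

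**Figure D1:**
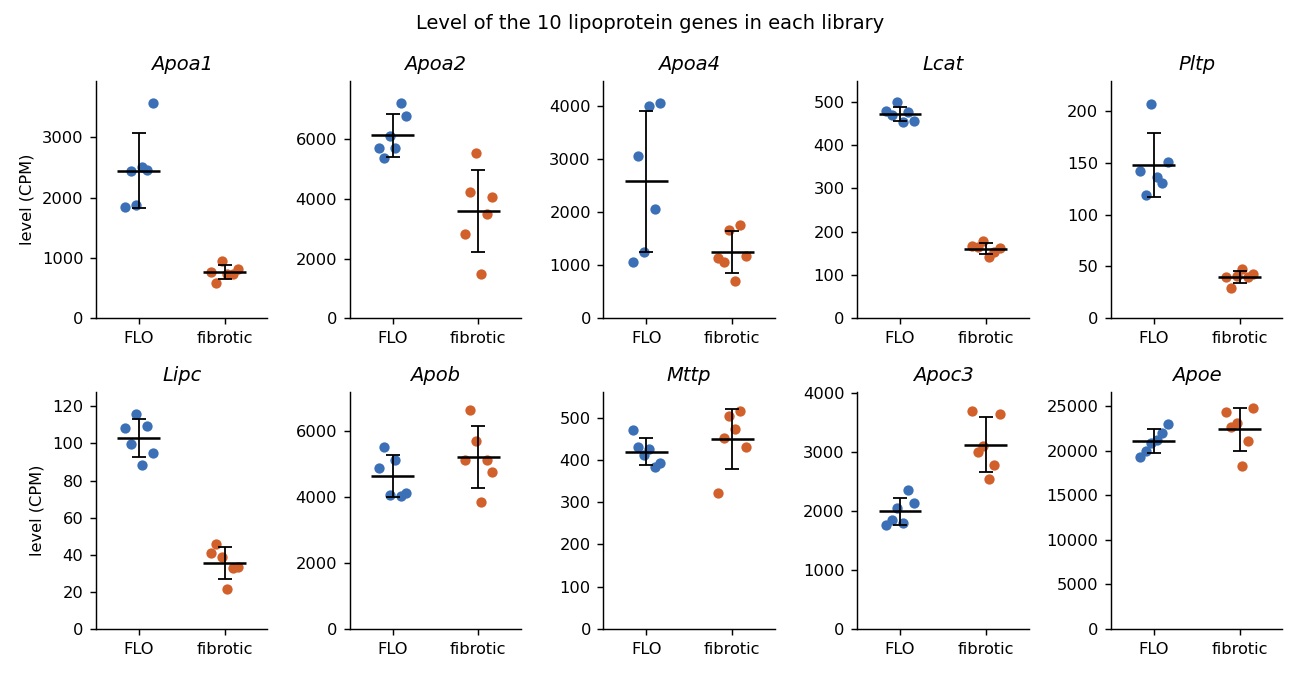
Level of each of the 10 genes in CPM (vertical axes, linear, from 0) in the 6 FLO and 6 fibrotic libraries. Each point is a library, the horizontal bar is the group mean and the error bar is the SD. The groups are apart for Apoa1, Lcat, Pltp, Lipc and Apoc3 and overlap for the other 5 genes.

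The promoters of the called-lower genes are shown first, since they are the members that moved together. The sequences are the 250 bases before each start site from RefSeq on GRCm38.p6, written 5′ to 3′ on the gene's strand. RefSeq promoters were matched by symbol for 9 of the 10 genes. Their start sites are not always those of GENCODE M21. The distance was 50 bases for Apoa1, 148 for Apoa4, 166 for Pltp and 12041 for Mttp, and 0 for Lipc. For each gene 1 promoter was used, though 2 were listed for Apoa2 and Lipc and 3 for Apoe. Capitals mark matches, on either strand, to CAAAGTCCA or CAAAGGTCA (motifs bound by HNF4), TATAAA (the core promoter box) or the promoter element CCAAT.
Apoa1, chr9:46228380-46228629, plus strand: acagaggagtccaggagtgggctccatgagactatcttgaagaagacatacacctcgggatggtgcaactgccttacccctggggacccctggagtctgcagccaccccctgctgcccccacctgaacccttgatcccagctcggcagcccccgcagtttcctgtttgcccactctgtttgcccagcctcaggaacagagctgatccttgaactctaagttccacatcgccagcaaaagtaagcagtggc
Pltp, chr2:164857709-164857958, minus strand: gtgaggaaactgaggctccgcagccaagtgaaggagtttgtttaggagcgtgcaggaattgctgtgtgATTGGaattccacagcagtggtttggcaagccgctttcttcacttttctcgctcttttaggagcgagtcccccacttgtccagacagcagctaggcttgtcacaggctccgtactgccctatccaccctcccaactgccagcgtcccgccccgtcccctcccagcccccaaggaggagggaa
Lcat, chr8:105943403-105943652, minus strand: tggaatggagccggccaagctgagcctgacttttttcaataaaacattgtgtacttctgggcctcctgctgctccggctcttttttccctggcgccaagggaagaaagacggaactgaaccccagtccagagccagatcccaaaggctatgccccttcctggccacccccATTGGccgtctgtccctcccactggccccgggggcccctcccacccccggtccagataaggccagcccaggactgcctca
Lipc, chr9:70934809-70935058, minus strand: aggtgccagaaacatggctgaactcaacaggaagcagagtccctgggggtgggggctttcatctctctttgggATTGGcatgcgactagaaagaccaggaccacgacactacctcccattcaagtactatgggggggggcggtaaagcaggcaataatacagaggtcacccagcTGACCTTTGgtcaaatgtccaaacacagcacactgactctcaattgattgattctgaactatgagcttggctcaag
The Lipc window holds an HNF4 match on the opposite strand from base -76, a sequence found in 0.426% of the 32851 promoter windows of this length. Reverse CCAAT matches begin at -182 in Pltp, -80 in Lcat and -177 in Lipc, a motif found in 33.8% of windows. The Apoa1 window, which runs past the GENCODE gene start at 46228580, holds none of these letters. Among the members that were not called, Apoa2 has a TATAAA at -212 and a reverse CCAAT at -164, and Apob has a TATAAA at -60, a motif found in 12.4% of windows. CAAAGTCCA, found in 0.384% of windows, was in none of the 9 windows. The 4 genes that were called lower therefore share none of the searched motifs across all 4 windows. Only exact letters were searched, so a window without a match may still hold a binding site with other letters. Bases outside the windows and other promoters of a gene were not searched.

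Apolipoprotein A-I, encoded by Apoa1 (ENSMUSG00000032083, chr9:46228580-46230466, plus strand), is the main protein of HDL and activates Lcat. Its level was 590 to 947 CPM in fibrotic libraries, with a median of 750, and 1847 to 3561 CPM in FLO libraries, with a median of 2442. The groups did not overlap: each fibrotic library lay below each FLO library. The means were 765 ± 117 CPM and 2445 ± 622 CPM (SD, n = 6 each), a 3.20-fold lower level in fibrotic livers and a log2 fold change of -1.68 (SE 0.16, interval -2.02 to -1.33, edgeR adjusted p = 7.93e-07). From the level of 1 gene in whole tissue, fewer cells of a type and less RNA per cell cannot be told apart. Beside the fall of Apoa1, the hepatocyte markers had log2 fold changes of -0.40 (Asgr1) to 0.82 (Fgb), with 0 of 7 called lower.

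Apolipoprotein A-II, encoded by Apoa2 (ENSMUSG00000005681, chr1:171225054-171226379, plus strand), is the second HDL protein by abundance. It ran from 1488 to 5546 CPM in fibrotic livers, with a median of 3770, and from 5363 to 7222 CPM in FLO livers, with a median of 5899. Fibrotic replicate 3 reached into the FLO range and the other 5 fibrotic libraries lay below it, with replicate 4 lowest by a wide margin. The means were 3608 ± 1378 CPM and 6144 ± 719 CPM (SD, n = 6 each), with a log2 fold change of -0.77 (SE 0.23, interval -1.26 to -0.28). Its edgeR adjusted p of 0.0112 lay just outside the threshold, so Apoa2 was not called. The call depended on the tool, the scaling and single libraries. With all 12 libraries kept, Apoa2 was called under upper quartile normalization, DESeq2, limma-voom and the replicate block. In edgeR the adjusted p was 0.00254 without fibrotic replicate 3, where the log2 fold change was -0.92, and 0.00371 without fibrotic replicate 4, where it was -0.60, and over the alternatives it ran from 0.00179 to 0.0274.

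Apolipoprotein A-IV, encoded by Apoa4 (ENSMUSG00000032080, chr9:46240696-46243459, plus strand), is carried on chylomicrons and HDL and in mice is made by liver as well as intestine. It was the most variable of the 10 genes in FLO livers, where the SD was 51.3% of the mean. FLO levels ran from 1062 to 4046 CPM, with a median of 2556, and fibrotic levels from 701 to 1753 CPM, with a median of 1151. Each fibrotic library was below the FLO median, but only 2 were below the lowest FLO library. FLO replicates 1 and 3, at 1062 and 1244 CPM, lay among the fibrotic values. The means of 1245 ± 397 and 2577 ± 1322 CPM (SD, n = 6 each) gave a log2 fold change of -1.05 (SE 0.34, interval -1.78 to -0.32, edgeR adjusted p = 0.0193), which was not called. Apoa4 was called without FLO replicate 1 (-1.21, adjusted p = 0.00514) or without FLO replicate 3 (-1.19, adjusted p = 0.00725), and over the alternatives its adjusted p ran from 0.00514 to 0.100. Its value is uncertain for another reason: Gm10680 and Gm47528 lie on the opposite strand of the same bases. Their log2 fold changes were -2.51 (edgeR adjusted p = 0.0958) and -1.50 (edgeR adjusted p = 0.00372). The methods name a stranded mRNA library kit for RNA-seq, but the sources do not state that counting of these reads used strand. Of the enterocyte markers, Alpi and Sis were at 0 counts in all 12 libraries and Lct and Rbp2 at no more than 2. Vil1 had at most 29 counts. Fabp2, the 1 enterocyte marker that was tested and a gene that liver also expresses, was called lower at -1.89. The summed level of the list was 17.5 to 31.5 CPM in fibrotic and 82.5 to 101 CPM in FLO libraries. Nearly all of that sum was Fabp2, at 15.9 to 31.4 CPM in fibrotic and 82.3 to 101 CPM in FLO libraries. The part of these markers in the level of Apoa4 was not tested.

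The 3 plasma proteins that act on HDL were lower together, each with groups that did not overlap. Lcat (ENSMUSG00000035237, chr8:105939551-105943382, minus strand), which esterifies cholesterol on HDL, was the most even of the 10 genes. It lay between 142 and 179 CPM in fibrotic libraries, with a median of 163, and between 454 and 499 CPM in FLO libraries, with a median of 473. The FLO libraries lay close together, with an SD of 3.59% of their mean. The means of 161 ± 12.5 and 472 ± 16.9 CPM (SD, n = 6 each) gave a 2.93-fold lower level and a log2 fold change of -1.55 (SE 0.08, interval -1.72 to -1.39, edgeR adjusted p = 1.65e-09), the lowest adjusted p of the 10. An antisense gene that was not tested, Gm16156, overlaps Lcat.

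Pltp (ENSMUSG00000017754, chr2:164839518-164857711, minus strand), which moves phospholipid from triglyceride-rich particles to HDL, had the most negative fold change of the 10. Its level was 28.9 to 47.4 CPM in fibrotic livers, with a median of 40.3, and 119 to 207 CPM in FLO livers, with a median of 139. FLO replicate 3 was the highest library. The means of 39.8 ± 6.10 and 148 ± 31.0 CPM (SD, n = 6 each) were 3.71-fold apart, with a log2 fold change of -1.89 (SE 0.14, interval -2.18 to -1.60, edgeR adjusted p = 6.56e-08), and of -1.77 without FLO replicate 3. The protease gene Ctsa overlaps Pltp on the opposite strand and had a smaller difference, -0.44 on the log2 scale (adjusted p = 0.00145, not called).

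Lipc (ENSMUSG00000032207, chr9:70798128-70952226, minus strand), the hepatic lipase that hydrolyses triglyceride and phospholipid of HDL and of remnants, had 21.5 to 45.8 CPM in fibrotic livers, with a median of 36.0. In FLO livers it had 88.1 to 116 CPM, with a median of 104. The highest fibrotic library lay well below the lowest FLO library. The means were 35.5 ± 8.47 and 103 ± 10.3 CPM (SD, n = 6 each), 2.89-fold lower in fibrotic livers, and the log2 fold change was -1.53 (SE 0.14, interval -1.84 to -1.22, edgeR adjusted p = 7.00e-07).

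Of the members, the VLDL assembly genes Apob and Mttp lay close to their FLO levels. Other assembly and secretion genes, given below, were called in both directions. Apob (ENSMUSG00000020609, chr12:7977648-8016835, plus strand), the structural protein of VLDL, had 3839 to 6647 CPM in fibrotic livers, with a median of 5127, and 4023 to 5517 CPM in FLO livers, with a median of 4505. The fibrotic range enclosed the FLO range. The means of 5201 ± 940 and 4627 ± 636 CPM (SD, n = 6 each) gave a log2 fold change of 0.17 (SE 0.14, edgeR adjusted p = 0.318), with an interval of -0.12 to 0.46. Mttp (ENSMUSG00000028158, chr3:138089854-138144968, minus strand), whose protein loads lipid on apolipoprotein B, had 321 to 516 CPM in fibrotic livers, with a median of 462, and 382 to 472 CPM in FLO livers, with a median of 420. Here too the fibrotic values spread on both sides of the FLO values. The means were 449 ± 70.5 and 419 ± 31.7 CPM (SD, n = 6 each), with a log2 fold change of 0.10 (SE 0.11, interval -0.13 to 0.33, edgeR adjusted p = 0.467). Both intervals lie inside the fold threshold of 0.5. Trmt10a overlaps Mttp on the opposite strand, with a log2 fold change of 0.05 (adjusted p = 0.794).

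Apolipoprotein C-III, encoded by Apoc3 (ENSMUSG00000032081, chr9:46232933-46235636, minus strand), slows the clearance of triglyceride-rich particles by inhibiting lipoprotein lipase and hepatic uptake. It was the 1 member that rose. Fibrotic livers had 2537 to 3692 CPM, with a median of 3043, and FLO livers 1767 to 2347 CPM, with a median of 1944. The lowest fibrotic library, replicate 4, was above the highest FLO library. The means of 3121 ± 461 and 1989 ± 230 CPM (SD, n = 6 each) gave a log2 fold change of 0.65 (SE 0.12, interval 0.40 to 0.90, edgeR adjusted p = 0.000316).

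Apolipoprotein E, encoded by Apoe (ENSMUSG00000002985, chr7:19696109-19699188, minus strand), is the ligand by which remnants are taken up by hepatocytes, and is made by macrophages as well as hepatocytes. It was the most abundant of the 10 genes, at rank 3 of all genes by summed counts, with 2.17% of all counts. Levels ran from 18341 to 24792 CPM in fibrotic libraries, with a median of 22906, and from 19352 to 22996 CPM in FLO libraries, with a median of 21052. The groups overlapped, with 3 fibrotic libraries above and 1 below the FLO range. The means were 22411 ± 2387 and 21088 ± 1323 CPM (SD, n = 6 each), with a log2 fold change of 0.09 (SE 0.11, interval -0.15 to 0.32, edgeR adjusted p = 0.526). Of 10 macrophage and Kupffer cell markers, 8 were called higher and 0 lower, and their summed level was 307 to 639 CPM in fibrotic and 246 to 276 CPM in FLO libraries. Their part in the level of Apoe was not tested.

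**Figure D2:**
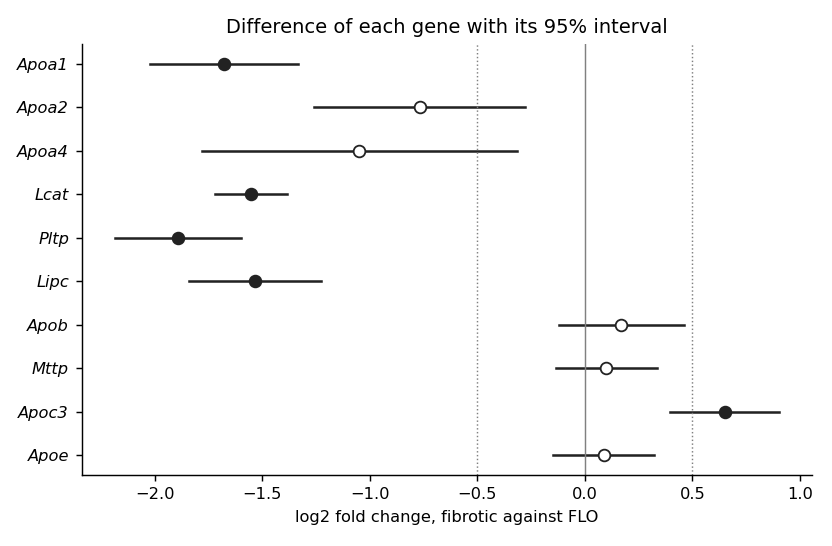
Log2 fold change of each of the 10 genes, fibrotic against FLO (horizontal axis), with its 95% confidence interval from the edgeR fit over 6 libraries a group. Filled points are called genes and dotted lines mark the fold threshold of 0.5. Apoa1, Lcat, Pltp and Lipc lie between -1.89 and -1.53, Apob, Mttp and Apoe lie between 0.09 and 0.17, and Apoc3 is at 0.65.

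One library recurred at the low end of the scaled levels. Fibrotic replicate 4 had the lowest total count and the highest TMM factor (1.20). In CPM it was the lowest fibrotic library for 7 of the 10 genes, namely Apoa2, Apoa4, Apob, Apoc3, Apoe, Lcat and Lipc. A high TMM factor lowers every scaled level of its library, so these ranks depend in part on the scaling. In unscaled share of library counts, fibrotic replicate 4 was lowest for Apoa2, Apoa4, Apob and Lipc. For Apoc3, Apoe and Lcat, fibrotic replicate 2 was lowest. Without it the called members were the same 5 with the addition of Apoa2. Without FLO replicate 3, the log2 fold changes of the called genes were -1.75 for Apoa1, -1.77 for Pltp, -1.54 for Lcat, -1.50 for Lipc and 0.66 for Apoc3, and those of Apoa2, Apob, Apoe and Mttp were -0.77, 0.13, 0.08 and 0.09. Over the alternatives tried, between 5 and 7 members were called, Apoc3 was the 1 called higher in each, and Apoa1, Pltp, Lcat and Lipc were called lower in each.

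Because scaling acts on every gene of a library alike, ratios of 2 members within a library were compared as well. For 7 pairs, the difference between groups in mean log2 ratio was compared with its value under each of the 924 ways to split the libraries 6 and 6 (exact permutation, two-sided, smallest possible p = 0.00216), with Benjamini-Hochberg adjustment over the 7 pairs. Apoa1 and Apoc3 are neighbours in 1 gene cluster and are transcribed from opposite strands. The count ratio of Apoa1 to Apoc3 was 1.23 ± 0.281 (SD, n = 6) in FLO and 0.248 ± 0.0447 (SD, n = 6) in fibrotic libraries. The 6 fibrotic libraries all lay below the 6 FLO libraries, a difference of -2.30 on the log2 scale (exact permutation p = 0.00216, adjusted p = 0.0152). Without FLO replicate 3 the difference was -2.38 (exact permutation, adjusted p = 0.0303). It was the 1 pair of 7 with an adjusted p under 0.05. That outcome was fixed by the levels above: each fibrotic library lay below the FLO range for Apoa1 and above it for Apoc3. The ratio therefore had to separate the groups and give the smallest possible p, and it is no further support for either change. The pairs were chosen with earlier results of these data known.

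The other HDL pairs differed less. The ratio of Apoa1 to Apoa2 was 0.398 ± 0.0873 in FLO and 0.247 ± 0.127 in fibrotic libraries (SD, n = 6 each), a log2 difference of -0.79 (exact permutation p = 0.0216, adjusted p = 0.0758). That of Apoa1 to Apoa4 was 1.12 ± 0.433 and 0.661 ± 0.211 (SD, n = 6 each), a log2 difference of -0.73 (exact permutation p = 0.0346, adjusted p = 0.0808). Both pairs overlapped between groups. Both passed 0.05 without fibrotic replicate 4, with log2 differences of -1.01 (exact permutation, adjusted p = 0.0152) and -0.87 (exact permutation, adjusted p = 0.0227).

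Among the plasma proteins, the ratio of Lcat to Lipc was 4.62 ± 0.323 in FLO and 4.73 ± 1.04 in fibrotic libraries (SD, n = 6 each), a log2 difference of 0.01 (exact permutation p = 0.946, adjusted p = 0.946). Both genes fell, and their mean ratio differed by less than its spread between libraries, which was wider in fibrotic livers. The ratio of Lcat to Pltp was 3.29 ± 0.530 in FLO and 4.15 ± 0.878 in fibrotic libraries (SD, n = 6 each), a log2 difference of 0.33 (exact permutation p = 0.0671, adjusted p = 0.117). Without fibrotic replicate 4 that difference was 0.42 (exact permutation, adjusted p = 0.0227). For the VLDL pair, Apob to Mttp, the ratio was 11.02 ± 1.14 in FLO and 11.9 ± 2.96 in fibrotic libraries (SD, n = 6 each), a log2 difference of 0.07 (exact permutation p = 0.649, adjusted p = 0.758). The ratio of Apoe to Apob was 4.65 ± 0.839 and 4.39 ± 0.650 (SD, n = 6 each), a log2 difference of -0.08 (exact permutation p = 0.576, adjusted p = 0.758). Neither of the last pairs differed beyond the spread between libraries.

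**Figure D3:**
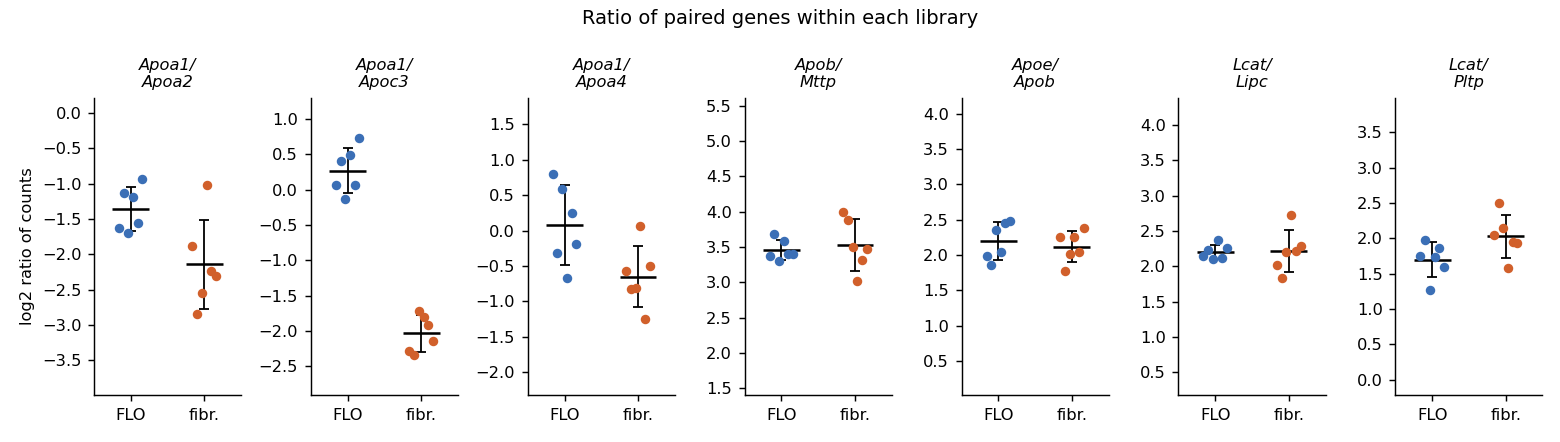
Log2 ratio of counts of paired genes within each library (vertical axes, each spanning the same number of log2 units), for 6 FLO and 6 fibrotic (fibr.) libraries. Points are libraries, horizontal bars are group means and error bars are SDs. The groups are apart for Apoa1/Apoc3, by -2.30 in the mean, and overlap in the other 6 pairs.

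Levels of different genes were compared per kilobase (kb) of the longest coding transcript in GENCODE M21, as mean CPM per kb. In FLO livers the order was Apoe (14977), Apoa2 (11861), Apoc3 (2805), Apoa1 (2363), Apoa4 (1420), Lcat (352), Apob (332), Mttp (106), Pltp (66.3) and Lipc (53.5). The ranges over libraries overlapped for the neighbours Apoe and Apoa2, Apoc3 and Apoa1, Apoa1 and Apoa4, Lcat and Apob, and Pltp and Lipc. Within single FLO libraries, though, Apoe was above Apoa2, Apoa1 above Apoa4 and Pltp above Lipc in 6 of 6, whereas Apoc3 was above Apoa1 in 5 of 6 and Lcat above Apob in 4 of 6. In fibrotic livers the order was Apoe (15917), Apoa2 (6964), Apoc3 (4402), Apoa1 (739), Apoa4 (686), Apob (373), Lcat (120), Mttp (113), Lipc (18.5) and Pltp (17.9). Within single fibrotic libraries, Apoe was above Apoa2, Apoc3 above Apoa1 and Apob above Lcat in 6 of 6, and Apoa2 was above Apoc3 in 5 of 6. Apoa1 was above Apoa4, and Pltp above Lipc, in 3 of 6 each. These orders are a description, with no test.

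**Figure D4:**
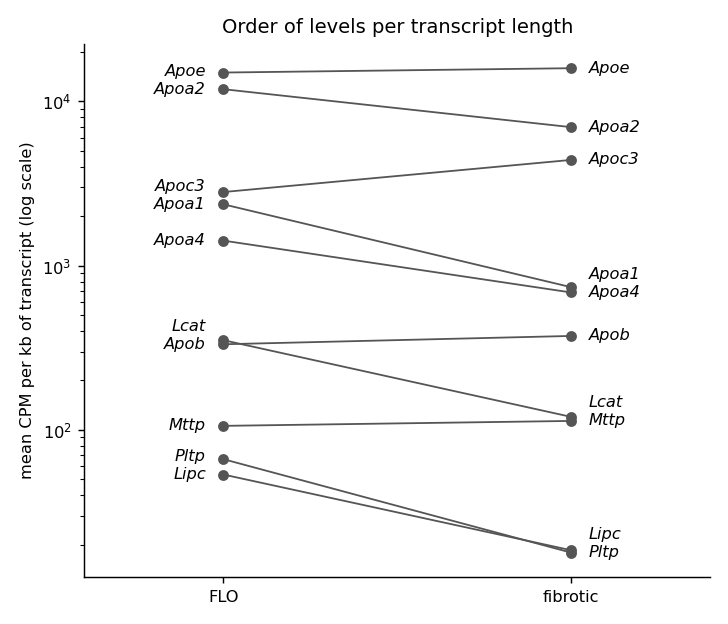
Mean level of each of the 10 genes in FLO and fibrotic livers, in CPM per kb of transcript (vertical axis, log scale), with a line joining the 2 group means (n = 6 each). Apoa1 falls away from Apoc3, from 2363 to 739, and Lcat falls from 352, beside Apob at 332, to 120, beside Mttp at 113.

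The share of library counts that the genes took gives the same data without TMM scaling, and is described with no test. All 10 genes took 3.76 ± 0.354% of counts in FLO and 3.91 ± 0.312% in fibrotic libraries (SD, n = 6 each). Apoe took 1.98 ± 0.147% and 2.37 ± 0.206% (SD, n = 6 each), and the other 9 genes 1.78 ± 0.223% and 1.54 ± 0.187% (SD, n = 6 each). Apoa1, Apoa2, Apoa4, Lcat, Pltp and Lipc together took 1.12 ± 0.212% in FLO and 0.613 ± 0.155% in fibrotic libraries (SD, n = 6 each). Apob with Mttp took 0.475 ± 0.0641% and 0.595 ± 0.0578% (SD, n = 6 each). On this unscaled measure Apoe, Apob and Mttp lie further above their FLO share than their scaled levels do, and TMM factors were 0.965 to 1.20 in fibrotic and 0.913 to 0.963 in FLO libraries.

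Position gave no common direction. Apoa1, Apoc3, Apoa4 and Apoa5 lie within 43.3 kb of chromosome 9 (46228580 to 46271919, GRCm38). Of these neighbours, Apoa1 fell and Apoc3 rose, and Apoa5, which enhances lipolysis by lipoprotein lipase, was called higher at 2137 ± 534 against 1351 ± 178 CPM (SD, n = 6 each, log2 fold change 0.66, SE 0.16, edgeR adjusted p = 0.00301), with 5 of 6 fibrotic libraries above the FLO range. Apoe shares 27.6 kb of chromosome 7 with Apoc1, Apoc4 and Apoc2 (19671579 to 19699188). Apoc2, the cofactor of lipoprotein lipase, was called lower at 230 ± 68.9 against 347 ± 54.8 CPM (SD, n = 6 each, log2 fold change -0.59, edgeR adjusted p = 0.00761). In 9 of 12 fits with a single library removed Apoc2 was not called, the highest adjusted p being 0.0203, and Gm44805 overlaps the gene on the same strand. Apoc1 and Apoc4, named after their values were seen, had log2 fold changes of -0.45 (adjusted p = 0.0143) and -0.16 (adjusted p = 0.507) and were not called.

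Other genes of the pathway were read in lists. Of 9 other apolipoproteins, 8 were tested, 1 was called higher (Apoa5) and 2 lower, Apoc2 and Apoh, with a median log2 fold change of -0.31. Apoh, a phospholipid-binding plasma protein, had 1046 ± 220 against 1663 ± 90.5 CPM (SD, n = 6 each, log2 fold change -0.67, edgeR adjusted p = 0.000692).

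Assembly and secretion genes were called in both directions. Of 14 tested, 2 were called higher and 7 lower, with a median of -0.46. Sort1, which encodes sortilin, a sorting receptor that binds apolipoprotein B in the Golgi, was called higher at 41.4 ± 4.93 against 11.3 ± 3.25 CPM (SD, n = 6 each, log2 fold change 1.88, SE 0.18, edgeR adjusted p = 7.84e-07). Pla2g12b, a secretory-pathway protein needed for full loading of VLDL, was called higher at 0.69 (adjusted p = 1.48e-06). Mia2, of the receptor family that exports large cargo from the endoplasmic reticulum, was called lower at 172 ± 14.4 against 383 ± 40.6 CPM (SD, n = 6 each, log2 fold change -1.15, edgeR adjusted p = 1.35e-07). Cideb, which acts in VLDL lipidation, was called lower at -1.11 (adjusted p = 7.11e-06), and Soat2, the hepatocyte enzyme that makes cholesteryl ester, at -0.77 (adjusted p = 0.00116). The other 4 called lower, the transport genes Sec24d, Sar1b, Mia3 and Sec24a, lay between -0.60 and -0.53.

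Of 8 tested genes of plasma lipolysis and remodelling, 3 were called higher and 3 lower, with a median of -0.44. Angptl8, an inhibitor of lipoprotein lipase, had 308 ± 65.9 against 21.3 ± 7.38 CPM (SD, n = 6 each, log2 fold change 3.85, SE 0.23, edgeR adjusted p = 2.30e-08). Lipoprotein lipase itself (Lpl), a macrophage as well as a fat and muscle gene, was called higher at 45.9 ± 24.7 against 14.7 ± 5.65 CPM (SD, n = 6 each, log2 fold change 1.64, SE 0.36, edgeR adjusted p = 0.00204). The macrophage markers given above moved the same way, and their part in this was not tested. Angptl4, another inhibitor of lipoprotein lipase, was called higher at 0.57 (adjusted p = 0.00166), a call lost without FLO replicate 3, where it was 0.48. The HDL-borne paraoxonase Pon1 was called lower at 178 ± 72.4 against 692 ± 72.3 CPM (SD, n = 6 each, log2 fold change -1.96, edgeR adjusted p = 2.55e-05). Lmf1, the maturation factor of lipoprotein, hepatic and endothelial lipases, was called lower at -1.44 (adjusted p = 3.85e-07), and endothelial lipase (Lipg), which hydrolyses HDL phospholipid, at -0.70 (adjusted p = 0.00161). Endothelial markers had a summed level of 99.99 to 136 CPM in fibrotic and 140 to 163 CPM in FLO libraries, with 1 of 5 called lower, and their part in the level of Lipg was not tested.

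Of 11 tested receptor and lipid efflux genes, edgeR called 2 higher and 0 lower (5 in either direction at an unadjusted p under 0.05), with a median of 0.05. The count called lower was 1 in 7 of 20 alternatives, namely RLE and upper quartile normalization, DESeq2 and the fits leaving out FLO replicate 2, 4, 5 or 6. Sdc1, which encodes syndecan-1, a heparan sulfate proteoglycan that binds remnants, rose from 287 ± 73.2 to 753 ± 81.3 CPM (SD, n = 6 each, log2 fold change 1.39, edgeR adjusted p = 2.37e-06). Abca1, which loads lipid on apolipoprotein A-I, was called higher at 0.64 (adjusted p = 0.000167). Cholangiocyte markers, of which 3 of 5 were called higher, had a summed level of 80.6 to 273 CPM in fibrotic and 47.0 to 87.9 CPM in FLO libraries, and their part in these values was not tested.

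**Figure D5:**
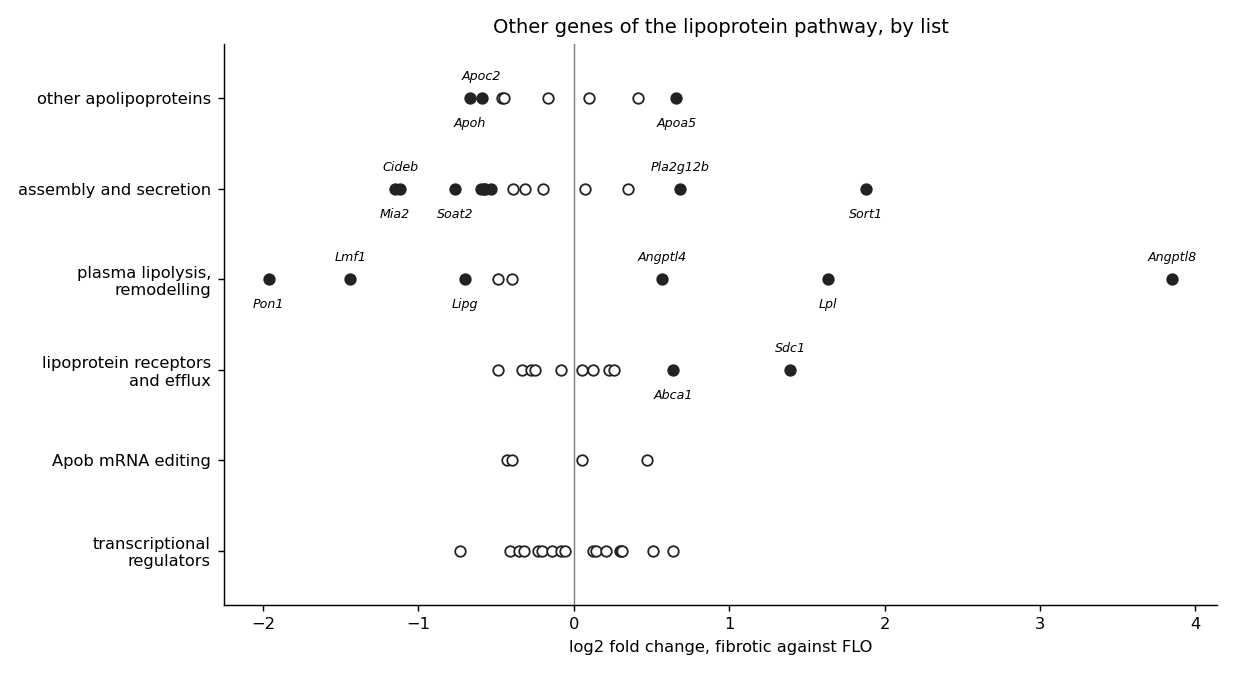
Log2 fold change, fibrotic against FLO (horizontal axis), of the tested genes of 6 lists (rows). Each point is a gene, filled where called, and called genes named in the text by rank are labelled. Called genes lie on both sides of 0 in the first 3 lists, from -1.96 (Pon1) to 3.85 (Angptl8), and above 0 in the fourth, and the last 2 lists hold none.

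The lists of Apob mRNA editing factors (the deaminase Apobec1 and 3 RNA-binding proteins) and of transcriptional regulators of apolipoprotein genes held no called gene. For editing, edgeR called 0 of 4 (3 at an unadjusted p under 0.05), as did DESeq2 (0) and limma-voom (0). The closest were Syncrip at -0.40 (adjusted p = 0.000374, under the fold threshold) and the deaminase Apobec1 at 0.47 (adjusted p = 0.00673, also under it). Apobec1 was called when fibrotic replicate 2 (0.53), fibrotic replicate 3 (0.54) or FLO replicate 5 (0.52) was left out. For regulators, edgeR called 0 of 17 (7 at an unadjusted p under 0.05), DESeq2 0 and limma-voom 0. Nr1h2, which encodes LXR beta, was at 0.30 (adjusted p = 0.0112) and Foxo1, which acts on Mttp and Apoc3 transcription, at 0.51 (adjusted p = 0.0123). Foxo1 was called without fibrotic replicate 1 (0.60) or 5 (0.57), and the coactivator Ppargc1a, named after its values were seen, without FLO replicate 1 (0.82, adjusted p = 0.00567). Hnf4a, a central activator of apolipoprotein genes, had a log2 fold change of -0.08.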

How the data were processed

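Libraries came from whole livers of 12 ob/ob mice, 6 fibrotic and 6 FLO, grouped and numbered by the sample titles. The authors deposited 1 table of raw counts per Ensembl gene, with no normalization, in which the labels name mm10, STAR 2.7.3a and bcl2fastq, and the methods name PISCES for quantification of RNA-seq. The methods name a stranded mRNA library kit for RNA-seq. The mouse annotation and the use of strand in counting are not given in the sources used here. Of 56205 identifiers, 51745 had a symbol in the name table, and positions came from GENCODE M21 (GRCm38).

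Counts were fitted in R 4.3.3 with edgeR 4.0.16 (robust quasi-likelihood, TMM, filterByExpr), with Benjamini-Hochberg adjustment over the 13416 genes tested. The thresholds of an FDR of 0.01 and an absolute log2 fold change of 0.5 follow the study's methods. The SE was the absolute log2 fold change divided by the square root of F. Ratios used counts with 0.5 added and an exact permutation test (scipy 1.17.1). The fit was tested on simulated data. Total counts of 17815568 to 24814263 per library make counting error small beside the spread between mice at the members' levels.

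Libraries of 1 group were compared in pairs, and each pair differed beyond sampling noise (smallest chi-square per degree of freedom 10.3). Same-numbered libraries of the groups did not deviate together in every pair (correlations -0.162 to 0.104), so the numbers were not taken as pairs. The alternatives changed the tool (DESeq2 1.42.0, or limma-voom from limma 3.58.1), the scaling (upper quartile, RLE, or TMM computed after leaving out the 50 most counted genes) or the low-count filter (none, or a minimum of 10 in every library). Further ones were a replicate block, an FDR of 0.05 with no fold threshold, 1 added to CPM in the ratios, and leaving out each library.

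The 10 genes, the lists, the pairs and the tests were chosen with earlier results of these data known. From each list, up to 3 called genes with the largest absolute log2 fold change in each direction are named, or, with none called, the 2 with the lowest adjusted p. Some genes of the lists are not reported here, and the counts are over the rest. Other genes are named with a remark, or for overlap, position or role. Of the marker lists that the results do not mention, stellate cell markers had 1 of 6 called higher, 0 of 4 adipocyte markers were tested, and of 4 pancreatic acinar markers 1 was tested and called higher (Cela2a, at most 90 counts).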

Additional observations from a re-analysis of the deposited data

Results flagged for a closer look

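For each value and group, the distance from the lowest or highest of the 6 libraries to the next one was taken as a share of the whole range, and 4 of 74 such shares exceeded the limit of 0.625, where chance gives 3.7. None of the 4 is one of the 10 genes or a ratio of them. In log2 CPM, fibrotic replicate 4 was lowest for Cideb (0.629) and Soat2 (0.683). For Angptl4, fibrotic replicate 1 was lowest (0.732) among fibrotic libraries and FLO replicate 3 was lowest (0.730) among FLO libraries.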

How the results depend on the processing

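Of the 10 genes, 8 kept their direction and their side of the thresholds under the alternatives tried that kept both thresholds. Apoa2 was not called in the main fit but was under upper quartile normalization (-0.80), DESeq2 (-0.78), limma-voom (-0.87), the replicate block (-0.87) and without fibrotic replicate 3 or 4. Apoa4 was called under DESeq2 (-1.07) and without FLO replicate 1 or 3. With an FDR of 0.05 and no fold threshold, 6994 genes were called in place of 4012. No fibrotic library correlated best with the FLO library of its own number, so the numbers were not taken as pairs. This check is weak and cannot exclude that mice were paired. The replicate block gave 3780 genes, of which 3694 were shared. Under it, Lpl was not called (1.56, adjusted p = 0.0214), and the Apoa1 to Apoc3 log2 ratio difference was -2.30, the sign-flip p of 0.03125 being the smallest that an exact test on 6 pairs allows (adjusted p = 0.219). Without 1 library at a time, ratio differences ran from -1.01 to -0.64 for Apoa1 to Apoa2, -0.88 to -0.58 for Apoa1 to Apoa4, -0.020 to 0.18 for Apob to Mttp, -0.093 to 0.086 for Lcat to Lipc and 0.23 to 0.42 for Lcat to Pltp. The Lcat to Lipc difference also turned to -0.012 with 1 added to CPM. These near-zero values carry no direction. The causes were not tested. Depth limits little here: the lowest member count was 459.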
